A study of Bos taurus with 12 samples.

Results

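Steroid hormones act on the endometrium, the lining of the uterus, through nuclear receptors: proteins that bind the hormone and then bind DNA. PGR is the receptor for progesterone, ESR1 (estrogen receptor alpha) for estradiol and NR3C1 for glucocorticoids. In ruminants estradiol raises PGR and ESR1 in the endometrium around estrus, and progesterone lowers PGR later in the cycle. Before they bind hormone these receptors are held ready by chaperone complexes that include FKBP4, and once on DNA they recruit coactivators such as NCOA1. PGRMC1 and PGRMC2 are membrane proteins of another family that are linked to rapid, non-genomic effects of progesterone.

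The genes described here were chosen by symbol: PGR, ESR1, NR3C1, PGRMC1, PGRMC2, FKBP4, NCOA1, NCOA3 and GREB1, the last a gene induced through ESR1. Of these 9 symbols, 8 are rows of the count table, which holds 13930 symbols, and all 8 had enough counts to be tested along with 10959 genes in all. NCOA3 was not analysed here.

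The tissue was endometrial biopsies of grazing dairy cows (Bos taurus), and RNA was sequenced from 12 samples. The samples form 4 classes of 3, set by how much progesterone was measured at cycle day 4. The very low class (titled ANE) lay below 0.25 ng/ml, the high class (HPP4) exceeded 2.5 ng/ml and the one called very high (SO) exceeded 20 ng/ml. For the low class (LPP4) the bound is 1.4, written in mg/dl where the other bounds are in ng/ml, so only the class order was used. What ANE and SO stand for, and whether those classes differ in more than progesterone, is not given in the sources used here, nor are the animals' ages. The labels do not say whether replicates of 1 class came from separate cows. The spread that the p-values rest on is the one between these samples, and it may be technical.

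Libraries held 3772564 to 8379489 counted reads, and very low replicate 2 was the smallest. The levels of cell type markers differed between the libraries, in part along the classes. The summed level of 12 smooth muscle markers was 12648 to 32066 CPM (counts scaled to library size) in the 6 libraries of the upper classes, high and very high, and 398 to 1352 CPM in the 3 low libraries as well as in very low replicates 2 and 3, and 77715 CPM in very low replicate 1. That library also had the lowest sum of 10 epithelial markers, 189 CPM against 1096 to 5158 CPM in the other 11. The sum of 6 macrophage and dendritic cell markers was 46.0 to 111 CPM in the upper classes and 147 to 579 CPM in the 6 others. A seventh marker of that list, AIF1, was at 0 in every library. The sum of 9 stromal fibroblast markers was 6518 to 56188 CPM. Epithelial and stromal fibroblast markers were thus read in all 12 libraries, the epithelial ones at a much lower level in very low replicate 1. In a biopsy, fewer cells of a type and less RNA per cell cannot be told apart, which holds for every level below.

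PGR and NR3C1 fell along the order of the progesterone classes, and the other 6 genes did not pass the test. The slope of PGR was -0.36 ± 0.09 log2 units per class (SE; edgeR quasi-likelihood test, Benjamini-Hochberg adjusted p = 0.0423). The slope of NR3C1 was -0.40 ± 0.08 (SE; edgeR adjusted p = 0.0294). At an unadjusted p under 0.05 it was 4 of 8, with ESR1 and NCOA1 (27.4% of all tested genes). The called slopes are 2 of 8 genes, both downward, where 6.37% of all tested genes had a slope past the threshold of 0.05 and 3.07% had a falling one. The median slope of the 8 genes was -0.10, against -0.03 over all tested genes.

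**Figure D1:**
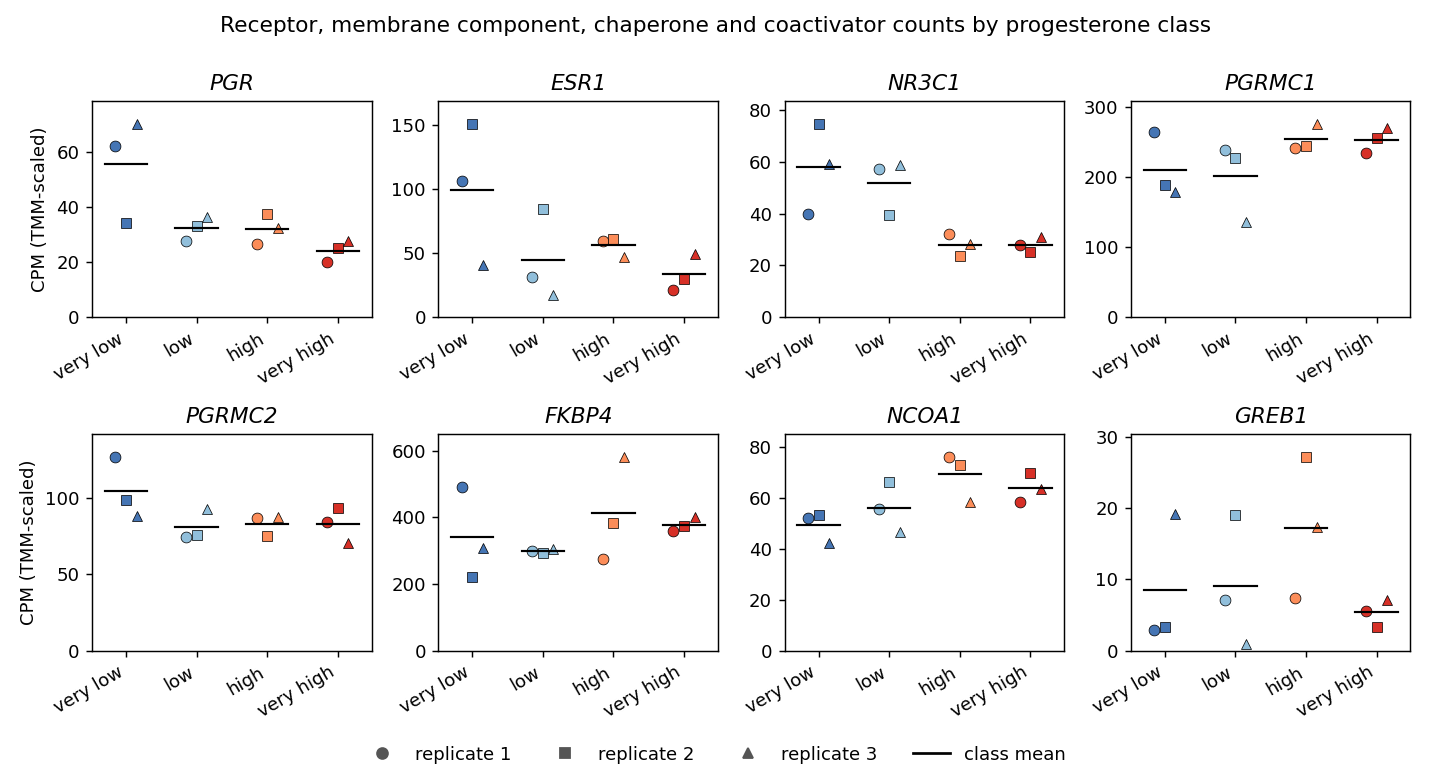
Level of each gene (vertical axis, CPM after TMM scaling, from 0) in the 12 libraries by progesterone class (horizontal axis). Points are libraries, symbols are replicate numbers and bars are class means. For NR3C1 the 6 libraries of the upper classes (23.6 to 32.2 CPM) lie below the 6 of the lower classes (39.7 to 74.9 CPM), and for PGR 2 very low libraries (62.2 and 70.3 CPM) stand above the other 10.

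PGR, which carries the transcriptional response to progesterone, had 62.2, 34.1 and 70.3 CPM in the very low class. Its levels were 27.7, 33.0 and 36.3 CPM in the low, 26.4, 37.5 and 32.3 CPM in the high, and 20.0, 25.1 and 27.6 CPM in the very high class. Very low replicates 1 and 3 stood above all other libraries, while very low replicate 2 lay inside the range of the low and high classes. The very high libraries lay below all libraries of the very low and of the low class and overlapped the high class. Against the low class the gap was narrow, 27.6 against 27.7 CPM at the nearest.

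The class means of PGR were 55.5 ± 19.0, 32.3 ± 4.36, 32.1 ± 5.53 and 24.2 ± 3.84 CPM from very low to very high (SD, n = 3 each). For low against very low the log2 fold change was -0.78 ± 0.27 (SE; edgeR adjusted p = 0.346). Low and high did not differ beyond their spread (-0.01, 95% interval -0.61 to 0.59). Over the whole span, very high against very low, the log2 fold change was -1.20 ± 0.28 (SE), a level 2.30 times higher in the very low class, and it missed the threshold (edgeR adjusted p = 0.0561).

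The call on the slope of PGR rested on most of the libraries. It held without very low replicate 1 (-0.34, edgeR adjusted p = 0.0467) and without very low replicate 2 (-0.42, edgeR adjusted p = 0.0392). It was lost when any of the other 10 libraries was left out, with slopes of -0.38 to -0.30 and edgeR adjusted p of 0.0546 to 0.135. It was also lost with limma-voom (limma adjusted p = 0.0570) and without a filter on low counts (edgeR adjusted p = 0.0527). The 2 libraries with the most PGR differed in smooth muscle markers: very low replicate 1 had the highest sum of all and very low replicate 3 one of 1352 CPM. Both had high stromal fibroblast sums, 44940 and 56188 CPM, against 6518 CPM in very low replicate 2. Low replicate 3 had a stromal fibroblast sum of 53350 CPM with 36.3 CPM of PGR. The part of tissue make-up in the PGR levels was not tested.

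NR3C1, the receptor through which cortisol acts, separated the 2 lower from the 2 upper classes. It had 39.8, 74.9 and 59.1 CPM in the very low class, and 57.5, 39.7 and 58.8 CPM in the low class. In the high class it had 32.2, 23.6 and 28.2 CPM and in the very high class 27.9, 25.2 and 30.9 CPM. All 6 libraries of the upper classes lay below all 6 of the lower classes, and within either pair of classes the ranges overlapped.

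The class means of NR3C1 were 57.9 ± 17.6, 52.0 ± 10.7, 28.0 ± 4.31 and 28.0 ± 2.85 CPM (SD, n = 3 each). The difference between very low and low was -0.16 (95% interval -0.71 to 0.40), and between high and very high it was -0.0011 (95% interval -0.56 to 0.56). For high against low the log2 fold change was -0.89 ± 0.25 (SE; edgeR adjusted p = 0.351), the 141st smallest p of that comparison. For very high against very low it was -1.05 ± 0.26 (SE; edgeR adjusted p = 0.0617).

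The order of NR3C1 ran alongside marker sums of other cells. The 6 libraries with more NR3C1 were the 6 with 147 CPM or more of macrophage and dendritic cell markers, and very low replicate 2, highest in NR3C1, had the highest sum, 579 CPM. Smooth muscle markers followed the same split in 11 of 12 libraries, 12648 CPM or more in the 6 with less NR3C1 and 1352 CPM or less in 5 of the 6 with more. The exception was very low replicate 1, richest in these markers, with 39.8 CPM of NR3C1. The sum of 8 T and NK cell markers was 72.6 to 203 CPM in the upper and 153 to 425 CPM in the lower classes, and the ranges overlapped. Neutrophil markers (5 genes) summed to 73.3 to 135 CPM in the upper classes and 559 to 941 CPM in the low class. They reached 3352 CPM in very low replicate 2, against 96.3 and 101 CPM in very low replicates 1 and 3. Without very low replicate 1 the slope was -0.47 (edgeR adjusted p = 0.0084), and very high against very low then passed the threshold (-1.27, edgeR adjusted p = 0.0215). Without very low replicate 2 the slope was -0.32 (edgeR adjusted p = 0.0548). The call was also lost without high replicate 2 (edgeR adjusted p = 0.0567) or without very high replicate 1, 2 or 3 (edgeR adjusted p = 0.0844, 0.11 and 0.0887). The part of macrophages, other leukocytes or smooth muscle in the NR3C1 levels was not tested.

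**Figure D2:**
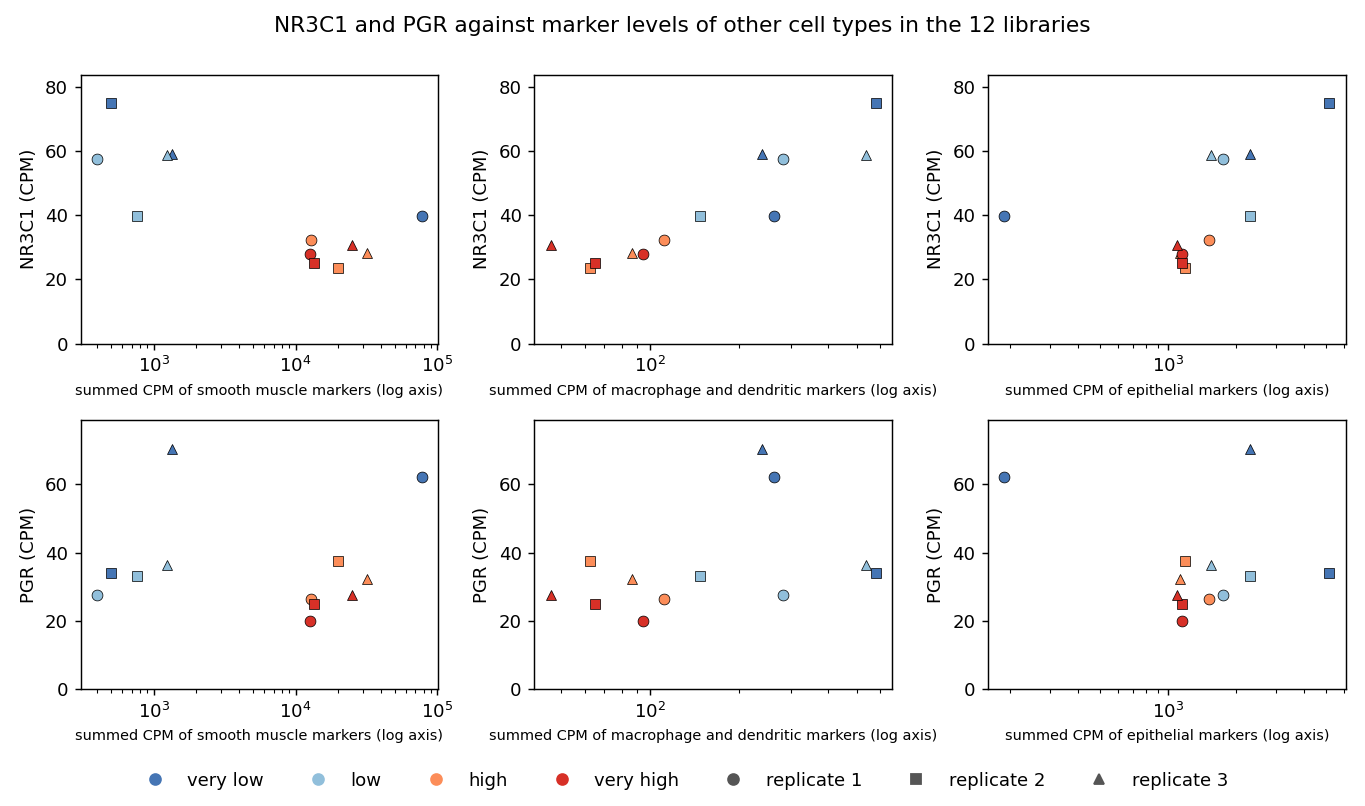
Levels of NR3C1 (top) and PGR (bottom) in CPM against the summed CPM of smooth muscle, macrophage and dendritic, and epithelial markers (horizontal, log axes) in the 12 libraries, coloured by class with the replicate number as symbol. The 6 libraries of the upper classes combine 23.6 to 32.2 CPM of NR3C1 with 46.0 to 111 CPM of macrophage and dendritic markers, and very low replicate 1 stands alone at 77715 CPM of smooth muscle markers.

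ESR1, the receptor that carries the estradiol response of the endometrium, varied widely between replicates of 1 class. It had 106, 151 and 40.7 CPM at very low progesterone, 31.1, 84.4 and 17.5 CPM in the low, 59.8, 61.2 and 46.8 CPM in the high and 21.5, 29.8 and 49.2 CPM in the very high class. Very low replicates 1 and 2 were the highest of all 12 libraries and low replicate 3 the lowest, and every pair of classes overlapped. The class means were 99.3 ± 55.5, 44.4 ± 35.4, 55.9 ± 7.96 and 33.5 ± 14.2 CPM (SD, n = 3 each). The slope was -0.44 ± 0.19 (SE; edgeR adjusted p = 0.160) and very high against very low differed by -1.57 ± 0.59 on the log2 scale (SE; edgeR adjusted p = 0.149), with a 95% interval of -2.87 to -0.26. Single libraries set much of this: low against very low was -1.16, and it was -2.0 without low replicate 2 and -0.71 without very low replicate 2, where the slope was -0.29.

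GREB1, an early estrogen-induced gene that binds the estrogen receptor complex, was the least steady of the 8. It had 2.83, 3.36 and 19.2 CPM at very low progesterone, 7.12, 19.1 and 0.868 CPM in the low, 7.38, 27.2 and 17.3 CPM in the high and 5.61, 3.37 and 7.12 CPM in the very high class. In low replicate 3 this was 6 reads. That library was also the lowest of all in ESR1, and low replicate 2 was the highest low library in both genes. In the very low class the order was not shared: replicate 2 had the most ESR1 (151 CPM), while replicate 3 had the most GREB1. The very high libraries lay just below the high ones, 7.12 against 7.38 CPM at the nearest, a log2 fold change of -1.69 ± 0.98 (SE; edgeR adjusted p = 0.9999). The slope of GREB1 was -0.11 (95% interval -0.79 to 0.57).

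The 2 membrane components differed little between classes, with levels in a narrow band. PGRMC1, a heme-binding protein of the endoplasmic reticulum and plasma membrane, had 264, 189 and 179 CPM at very low progesterone, 239, 227 and 137 CPM in the low, 241, 245 and 276 CPM in the high and 234, 256 and 270.3 CPM in the very high class. All 6 libraries of the upper classes lay at 234 CPM or more, and 2 of the 6 others reached that level. Its highest level was 2.02 times its lowest. High lay above low without overlap (log2 0.34, 95% interval -0.19 to 0.86; 0.12 without low replicate 3), and the slope was 0.11 (95% interval -0.05 to 0.28; edgeR adjusted p = 0.357).

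PGRMC2, a relative of PGRMC1 with the same heme-binding fold, leaned the other way. It had 127, 99.1 and 88.4 CPM at very low progesterone, 74.5, 75.7 and 93.1 CPM in the low, 86.8, 75.5 and 87.6 CPM in the high and 84.7, 93.6 and 70.8 CPM in the very high class. Libraries of the very low class lay above the high ones without overlap, by less than 1 CPM at the nearest. The log2 fold change of low against very low was -0.37 (95% interval -0.78 to 0.04) and the slope -0.10 (95% interval -0.23 to 0.03; edgeR adjusted p = 0.316). Without very low replicate 1 these were -0.20 and -0.05, and without very high replicate 3 the slope was -0.05. Log2 fold changes from low to high and from high to very high were 0.04 or less in size.

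FKBP4, the co-chaperone FKBP52 that supports hormone binding by PGR, had 490.5, 221 and 309 CPM in the very low class, and 298, 293 and 307 CPM in the low class. It had 276, 383 and 581 CPM in the high and 360.3, 374 and 401 CPM in the very high class. The low libraries agreed within 2.30% (coefficient of variation, n = 3) and lay below all very high libraries, while the very low and high classes each spanned over 200 CPM. Its slope was 0.09 (95% interval -0.13 to 0.31; edgeR adjusted p = 0.585), with 0.19 when very low replicate 1 was left out, 0.04 without replicate 2 of that class and 0.06 without high replicate 3.

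NCOA1, the coactivator SRC-1, had 52.1, 53.2 and 42.1 CPM at very low progesterone, 55.5, 66.3 and 46.5 CPM in the low, 75.8, 72.9 and 58.4 CPM in the high and 58.2, 69.4 and 63.2 CPM in the very high class. Libraries of the very low class lay below all libraries of the high and of the very high class. The slope was 0.14 ± 0.06 (SE, 95% interval 0.01 to 0.27), and it missed the threshold after adjustment (edgeR adjusted p = 0.148). Very high against very low gave a log2 fold change of 0.37 ± 0.18 (SE; edgeR adjusted p = 0.245).

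**Figure D3:**
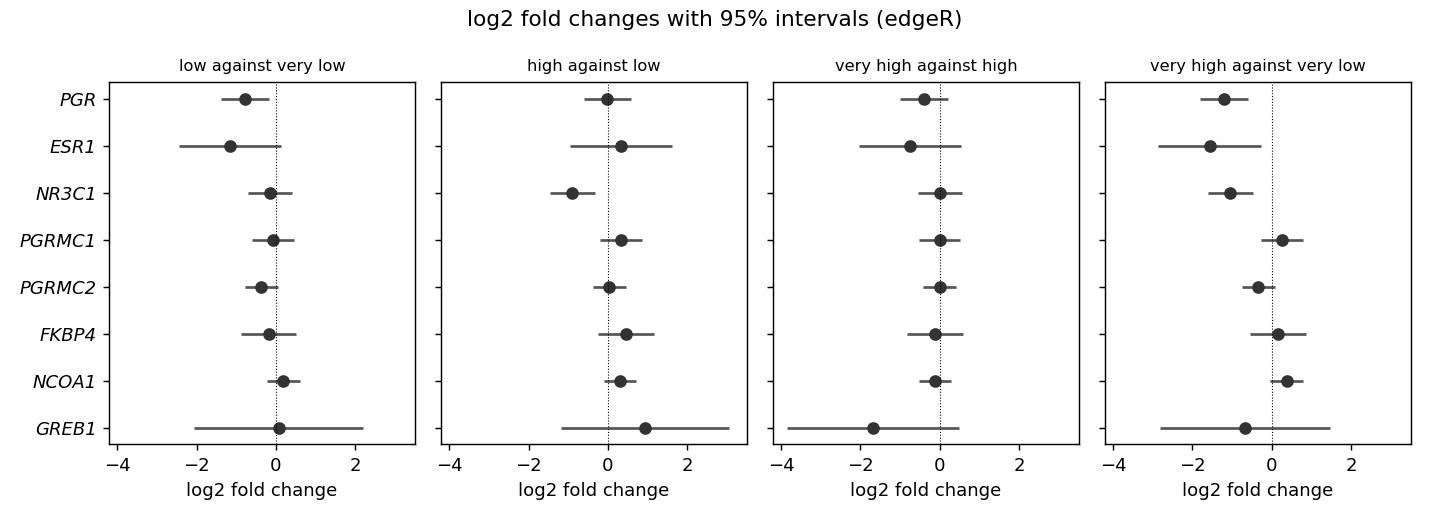
Log2 fold changes of the 8 genes (horizontal axis; points are edgeR estimates, lines 95% intervals) for the 3 steps between neighbouring classes and for very high against very low. PGR and ESR1 lie furthest left at the first step (-0.78 and -1.16), where the interval of ESR1 crosses 0. NR3C1 lies furthest left at the second step (-0.89) and GREB1 at the third (-1.69). At the third step the interval of every gene crosses 0.

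In the pairwise comparisons none of the 8 genes passed the threshold in edgeR's test. For very high against very low 1.52% of all tested genes passed, and 3 of the 8, PGR, ESR1 and NR3C1, had an unadjusted p under 0.05 (23.8% of all tested genes). There DESeq2 called 2 of the 8, PGR and NR3C1, and limma-voom called 0. For low against very low, 0% of all genes passed and 1 of the 8, PGR, had an unadjusted p under 0.05 (11.6% of all genes). For high against low, 0% passed and 1 of the 8, NR3C1, had one (10.3% of all genes). For very high against high, 0% passed and 0 of the 8 had one (0.794% of all genes). In these 3 steps DESeq2 and limma-voom called 0 of the 8. In the joint test of the 4 classes 0% of all genes passed in edgeR, with 2 of the 8, PGR and NR3C1, at an unadjusted p under 0.05 (17.8% of all genes). DESeq2 called these 2 in the joint test and limma-voom called 0.

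Counted by ranges, 3 of the 8 genes did not overlap between very high and very low (PGR, NR3C1 and NCOA1), where 25.7% of all tested genes did not. Between high and low it was 2 of 8 (NR3C1 and PGRMC1; 20% of all genes), between low and very low 0 of 8 (9.74%), and between very high and high 1 of 8 (GREB1; 7.09%). Between very high and low it was 3 of 8 (PGR, NR3C1 and FKBP4; 22.8%), and between high and very low 3 of 8 (NR3C1, PGRMC2 and NCOA1; 20.4%). None of these shares was read as particular to the 8 genes.

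The genes also differed in how steady they were within a class. The within-class SD of log2 CPM was 0.20 for both NCOA1 and PGRMC2, which placed them at the 10th and 10.2th percentile of all tested genes. It was 0.28 for PGRMC1, 0.31 for NR3C1, 0.34 for PGR and 0.40 for FKBP4, all below the median of 0.45 over all genes. ESR1 stood at 0.81 (78.1th percentile) and GREB1 at 1.38 (94.2th percentile).

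Ratios of counts within a library do not depend on how libraries are scaled, and 3 were compared over the 4 classes by an exact permutation test of all assignments of the 12 samples. PGR and ESR1 did not keep a fixed proportion: their log2 ratio ran from -2.14 to 0.79 within the very low class alone, and the classes did not differ (exact permutation p = 0.844, adjusted over the 3 ratios 0.844). The log2 ratio of PGRMC2 to PGRMC1 was -1.0 ± 0.07 in the very low, -1.27 ± 0.63 in the low, -1.61 ± 0.12 in the high and -1.62 ± 0.27 at the very high end (SD, n = 3 per class; exact permutation p = 0.147, adjusted 0.221). The 3 very low libraries lay above all libraries of the other classes but 1, low replicate 3 (-0.55). With each of the 12 libraries left out in turn, the adjusted exact permutation p ran from 0.0555 to 0.5005. It passed the threshold in 0 of these 12 runs. The smallest came from leaving out low replicate 3 itself (exact permutation p = 0.0185 before adjustment).

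FKBP5 is the co-chaperone that competes with FKBP4 on the receptor complexes and is itself induced by progestins and glucocorticoids. Its log2 ratio to FKBP4 was -1.94 ± 0.69 in the very low, -1.0 ± 0.54 in the low, -0.78 ± 0.88 in the high and -0.53 ± 0.34 at the very high end (SD, n = 3 per class). The very high libraries lay above the very low ones, -0.92 against -1.17 at the nearest, and every other pair of classes overlapped. The difference between the classes missed the threshold (exact permutation p = 0.109, adjusted 0.221).

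**Figure D4:**
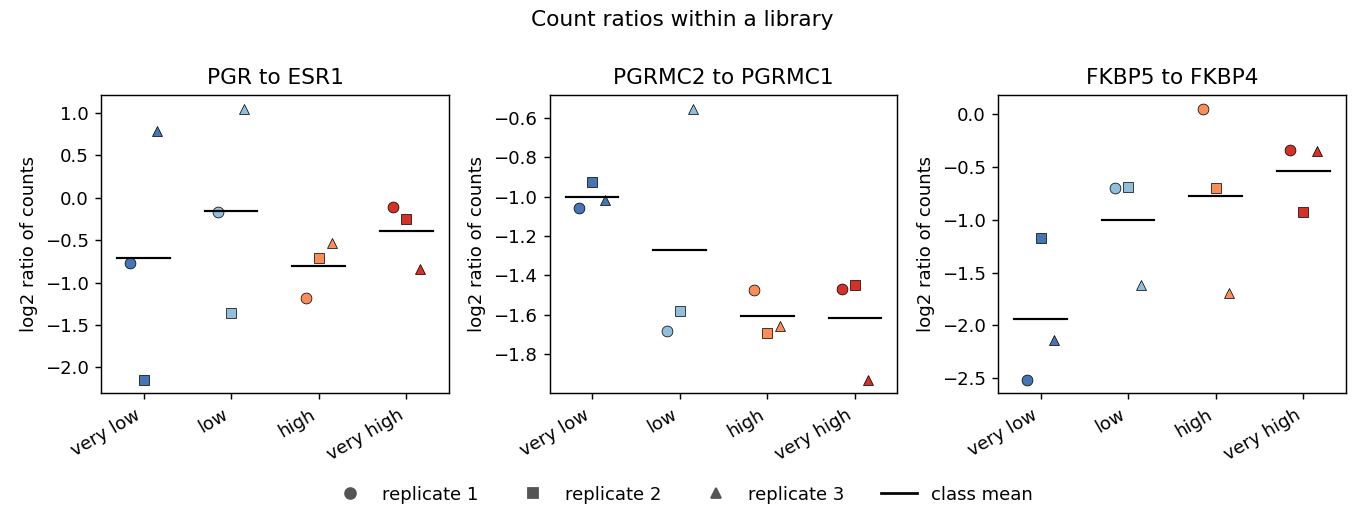
Log2 ratio of counts within a library (vertical axis) for PGR to ESR1, PGRMC2 to PGRMC1 and FKBP5 to FKBP4 by progesterone class; points are libraries, bars class means. For PGRMC2 to PGRMC1 the very low libraries lie near -1.0 and the high and very high ones between -1.93 and -1.45, and low replicate 3 stands apart at -0.55.

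Other genes of the steroid response were counted from lists. Of 4 further receptors, 3 were tested and 0 passed in edgeR in either the slope or very high against very low. ESR2, estrogen receptor beta, had 0, 3.1 and 8.19 CPM at very low progesterone, 18.6, 23.0 and 3.33 CPM in the low, 29.3, 24.2 and 18.4 CPM in the high and 22.7, 30.4 and 40.8 CPM in the very high class. Libraries of the very low class lay below all high and very high ones, opposite to the lean of ESR1, with a slope of 0.97 ± 0.31 that missed the threshold (SE; edgeR adjusted p = 0.0811). The slope of ESR2 passed in 1 of 12 fits with a library left out (very low replicate 3, edgeR adjusted p = 0.0496). It passed in 1 of 6 other settings (DESeq2 adjusted p = 0.0109). Very low replicate 1, with no ESR2 read, was also the library with the fewest epithelial markers.

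Of 7 other genes of membrane progesterone signalling, 5 were tested and 0 passed in either comparison. PAQR8, the membrane progesterone receptor beta, ran from 139 to 295 CPM in very low and from 147 to 174 CPM in very high libraries (slope -0.16, edgeR adjusted p = 0.307). PAQR7, membrane progesterone receptor alpha, had 1.55 to 7.23 CPM over the 12 libraries (slope 0.25, edgeR adjusted p = 0.349).

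Among 16 receptor chaperones, 1 rose and 0 fell in the slope, FKBP5. It had 85.7, 98.1 and 70.1 CPM at very low progesterone, 184, 182 and 99.6 CPM in the low, 286, 237 and 180 CPM in the high and 286, 197 and 316 CPM in the very high class. All very low libraries lay below all others (slope 0.56 ± 0.09, SE; edgeR adjusted p = 0.0232). Of 24 coregulators 12 were tested, and 1 of them fell in the slope, NCOA4, a coactivator that also directs ferritin to lysosomes. Its levels were 164, 155 and 127 CPM at very low progesterone, 117, 113 and 111 CPM in the low, 107, 115 and 108 CPM in the high and 99.4, 96.4 and 98.7 CPM in the very high class. Libraries of the very low class lay above and the very high ones below all others, in a slope of -0.18 ± 0.05 (SE; edgeR adjusted p = 0.0448). Of 19 steroid-metabolising enzymes 13 were tested and 0 passed in edgeR, with 7 of 13 at an unadjusted p under 0.05 in the slope, beside 27.4% of all tested genes.

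Of 13 glucocorticoid-responsive genes 3 rose in the slope and 0 fell. KLF15, a transcription factor induced by glucocorticoids, had a slope of 0.76 ± 0.10 (SE; edgeR adjusted p = 0.0181). It had 6.01 to 11.4 CPM in the very low and 21.3 to 42.2 CPM in the low class. In the high class it had 37.4 to 44.1 CPM and in the very high class 42.9 to 48.3 CPM. TSC22D3, the glucocorticoid-induced leucine zipper, had a slope of 0.84 ± 0.16 (SE; edgeR adjusted p = 0.0283). It had 35.3 to 149 CPM in the very low and 222 to 525 CPM in the low class. In the high class it had 313 to 639 CPM and in the very high class 485 to 732 CPM. The other riser was FKBP5. The slopes of these 3 genes were upward and that of the NR3C1 transcript downward, with their steps at different classes. For each of the 3, all very low libraries lay below all low ones, and low and high overlapped. NR3C1 overlapped between very low and low, and its high libraries lay below all low ones. The list as a whole did not rise: its median slope was -0.05, with slopes from -1.03 to 0.84. At an unadjusted p under 0.05 it was 7 of 13, in either direction, beside 27.4% of all tested genes. Receptor protein was not analysed here.

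Of 16 tested progesterone-associated genes 5 rose and 1 fell in the slope. The proenkephalin gene PENK (3.05 per class) and the meprin subunit MEP1B (2.82 per class) had the smallest p (edgeR adjusted p = 0.0181 for both). Their rise was not even, and low and high overlapped for both. PENK had 0.516 to 6.5 CPM in very low and 291 to 1511 CPM in low libraries. In the high class it had 786 to 900 CPM and in the very high class 1132 to 4482 CPM. MEP1B had 0 to 1.04, 32.0 to 153, 64.8 to 127 and 111 to 607 CPM in the same order. Of 16 tested estrogen-responsive genes, which include PGR and GREB1, 4 fell and 1 rose. Besides PGR, the oxytocin receptor OXTR (-1.45 per class, edgeR adjusted p = 0.0232) and the growth regulator MYC (-0.71 per class, edgeR adjusted p = 0.0445) fell. MYC stood at 318 CPM in very low replicate 1 and at 72.0 and 85.1 CPM in the other 2 very low libraries. The lists share genes, such as FKBP5, and were chosen with earlier results known, so their counts are descriptions beside the 3.3% of all tested genes with a rising and the 3.07% with a falling slope.

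Of the slopes outside the first 8 genes, those of PENK, MEP1B and KLF15 passed whichever library was left out. That of FKBP5 passed in 10 of 12 such fits, OXTR and TSC22D3 in 9, MYC in 4 and NCOA4 in 2 (edgeR adjusted p up to 0.155 for NCOA4). Without very low replicate 1 the slope of MYC was -0.41 (edgeR adjusted p = 0.0430). With the rank as a numeric term PENK was not called (slope 2.0, edgeR adjusted p = 0.0754). With limma-voom MEP1B, NCOA4 and MYC were not called (limma adjusted p = 0.0507, 0.0565 and 0.0768), nor was NCOA4 without a filter on low counts (edgeR adjusted p = 0.0668).

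The genes whose profile lay closest to that of 3 receptor and target genes were found by the root mean square difference of log2 CPM, centred on each gene's mean, over the 12 libraries and 10241 candidates. For PGR, whose own profile has an SD of 0.49, they were PINX1 (0.20), a telomerase inhibitor, PABPC4 (0.23), a poly(A)-binding protein, and TTC27 (0.24). PINX1 had 16.7 ± 4.68 CPM in the very low class, 10 ± 0.68 CPM in the low, 11.3 ± 2.54 CPM in the high and 7.93 ± 0.23 CPM in the top class (SD, n = 3 per class), the order of PGR but for low and high. For ESR1 (SD 0.88) they were the kinase HIPK3 (0.29), LYSMD3 (0.34) and the kinesin KIF5B (0.34). For GREB1 (SD 1.29) the closest, ADAMTS14 (0.81), KRT80 (0.81) and CABYR (0.85), lay much further off. Among the 8 genes themselves the closest pair was PGRMC1 and NCOA1 (0.23) and the furthest NR3C1 and GREB1 (1.56), while PGR and ESR1 lay 0.84 apart.

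**Figure D5:**
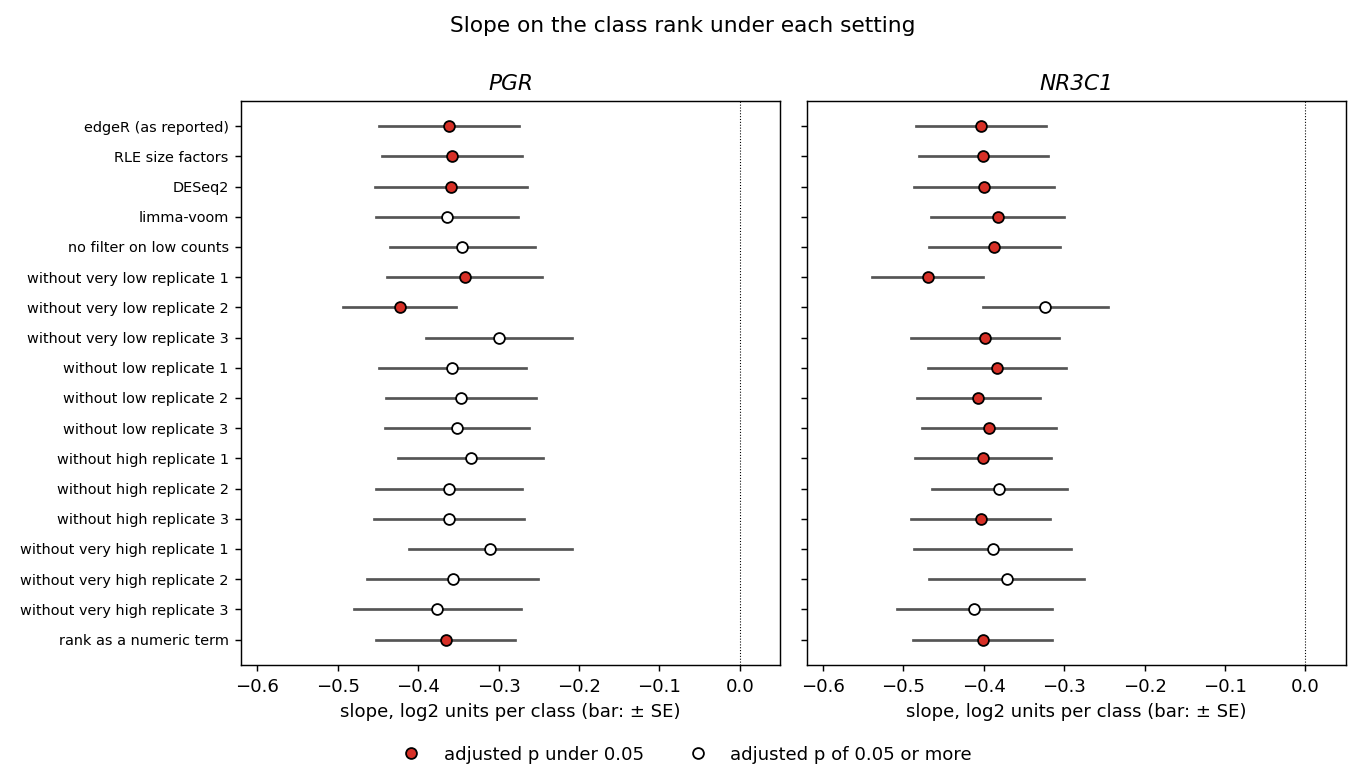
Slope of PGR and NR3C1 on the class rank (horizontal axis, log2 units per class; bars ± SE) as reported and under other tools, filters and left-out libraries. All slopes lie between -0.47 and -0.30; filled points have an adjusted p under 0.05, which NR3C1 has in more of the settings than PGR.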

How the data were processed

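The authors deposited raw counts, whole numbers of reads per gene symbol with 1 column per sample. Per the labels' protocols, oligo-dT selected RNA was made into stranded TruSeq libraries and sequenced as paired reads in 1 pool. FastQC 0.11.2, Trimmomatic 0.32, UMD3.1 and bosTau8 are named in the submitters' processing notes; for the aligner, counter, strand setting and annotation, nothing is given in the sources used here. Without the strand setting, reads of overlapping genes cannot be told apart; in the RefSeq table of ARS-UCD2.0, NR3C1 overlaps 1 uncharacterised locus, which was not tested, and the other 7 genes overlap none. CPM are not per length, so levels are not compared between genes.

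From these counts, edgeR 4.0.16 (R 4.3.3) fitted the 4 class means to all 12 libraries (TMM, factors 0.728 to 1.11; filterByExpr, minimum count 10, 10959 genes; 8 residual degrees of freedom before moderation; common biological coefficient of variation 44.0%). The slope is a contrast of class means on ranks 1 to 4. P-values were Benjamini-Hochberg adjusted over all tested genes (threshold 0.05); intervals are 95%. Log2 CPM used a prior count of 2 and ratios an offset of 0.5. DESeq2 1.42.0, limma-voom (limma 3.58.1), RLE size factors, no filter, a replicate block, leave-one-out fits and a fit of 6 samples were alternatives. No pair of replicates was alike within counting noise (chi-square over its degrees of freedom, 22.1 to 288). The ratio of NCOA3 to NCOA1 was planned and not analysed here.

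Named genes are the 8 analysed here, ESR2, PAQR7, PAQR8, FKBP5, and the 3 most similar profiles (mean log2 CPM of at least 1) for PGR, ESR1 and GREB1. Per list and comparison, up to 3 genes past the threshold were also named, those with the smallest p in either direction. Genes and lists were chosen with earlier results of these data known.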

Additional observations from a re-analysis of the deposited data

How the results depend on the processing

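PGR and NR3C1 kept a falling slope under every alternative run. The count of the 8 genes with a called slope was 2, and it was 1 with limma-voom (NR3C1; limma adjusted p = 0.0570 for PGR), 1 without a filter on low counts (NR3C1; PGR edgeR adjusted p = 0.0527) and 0 to 2 with 1 library left out. With DESeq2 2 of the 8 were called for very high against very low and 2 in the joint test, against 0 as reported, and leaving out 1 library gave 0 to 1 in both. Over all genes, the count for very high against very low went from 167 to 1510 (DESeq2), 1 (limma-voom), 0 (its 6 samples alone) and 0 to 651 (1 library left out), and that of the slope from 698 to 2038, 233 and 18 to 1396; with the rank as a numeric term, an alternative chosen after seeing the data, it was 820 with the same 2 of the 8 genes. DESeq2 called 293 genes for low against very low, 241 for high against low and 1303 jointly, against 0 each, and leaving out 1 library gave 0 to 16, 0 to 76 and 0 to 222. The cause of these differences was not tested.

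With the replicate number as a block, 0 of the 8 slopes passed (edgeR adjusted p = 0.0733 for PGR and 0.0649 for NR3C1), nor did those of OXTR, TSC22D3, NCOA4 and MYC (0.0533, 0.0619, 0.0788 and 0.0854); 102 genes had a called slope and 0 a called difference between very high and very low. The labels do not say whether the numbers pair the samples. Deviations from the class means in samples of 1 number had correlations of -0.30 to 0.29, over 0.1 in 3 of 18 pairs. With 3 samples a class these values cannot exclude a pairing. Permuted within the block, the ratios gave exact permutation p of 0.762 (PGR to ESR1), 0.229 (PGRMC2 to PGRMC1) and 0.0590 (FKBP5 to FKBP4).

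Some values changed sign, none of them called. High against low, PGR went to 0.0082 without a filter. Very high against high, NR3C1 went to 0.0023 (RLE), 0.0024 (DESeq2), 0.0063 (limma-voom) and 0.0067 (no filter), PGRMC1 to 0.00078, 0.00075 and 0.0045 (RLE, DESeq2, no filter) and PGRMC2 to 0.0013, 0.0015 and 0.0051. With limma-voom GREB1 had -0.32 for low against very low and a slope of 0.052. With 1 library left out, very high against very low ran from -0.034 to 0.50 for FKBP4 and from -1.12 to 0.80 for GREB1. Low against very low ran from -0.36 to 0.087 (NR3C1), -0.19 to 0.15 (PGRMC1), -0.40 to 0.17 (FKBP4) and -1.09 to 1.55 (GREB1). High against low ran from -0.14 to 0.13 (PGR), -0.046 to 1.22 (ESR1) and -0.012 to 0.15 (PGRMC2). Very high against high ran from -0.088 to 0.12 (NR3C1), -0.037 to 0.063 (PGRMC1), -0.097 to 0.11 (PGRMC2) and -0.34 to 0.20 (FKBP4). The slope of GREB1 ran from -0.25 to 0.33, and the very high minus very low difference of the PGR to ESR1 log2 ratio from -0.40 to 1.06 around 0.31.

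Of the 8 genes, 7 had 121 reads or more in every library, and GREB1 had 6 to 213, so its low values are the least precise.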
